A study of Mus musculus with 8 samples.

Results

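The collagen chain genes were taken as the rows of the count tables whose symbol has the form Col, a number, a and a number. There were 44 such rows among 23282, and 37 of them passed edgeR's filter on low counts (filterByExpr), among 13174 rows that passed in all. The tables came from 8 RNA libraries of mouse gastrocnemius, a calf muscle, from C57BL/6 animals with a listed age of 4 weeks. The study asked how an extract of Paeonia lactiflora, the peony, affects the muscle wasting that accompanies a growing tumour. Animals of the RP group (2 libraries) carried Lewis lung carcinoma, a transplantable lung tumour of this strain, from 1000000 cells placed under the skin in 100 µl of saline. After 2 weeks of tumour growth they received 100 mg/kg of an extract made with 30% ethanol, by mouth in 200 µl of water, every day for 2 weeks. Per the labels' protocols, animals of the Control group (3 libraries) carried the same tumour and received water alone, and animals of the Normal group (3 libraries) received saline under the skin and water by mouth. Tumour-bearing animals were regrouped before dosing so that tumour size matched.

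The labels of the Normal and Control samples disagree with each other. All 6 tables of the samples titled Normal or Control carry the other group's name, so each sample is called here Control-titled or Normal-titled after its title. If the table names hold instead, the Control-titled against Normal-titled comparison changes sign and the RP comparisons exchange places. The labels do not state that each library is a separate animal, so p-values measure the spread between these libraries, which may be in part technical. Summed levels of 7 skeletal muscle fibre markers were 88829 to 93667 CPM (counts scaled to a library of 1000000) in RP libraries. They were 72084 to 90373 CPM in Control-titled libraries and 61334 to 82005 CPM in Normal-titled libraries. The markers place every library in skeletal muscle, but are not specific to gastrocnemius. Total counts ran between 9528011 and 12333767 per library. Haemoglobin genes took 0.862% and 3.83% of counts in RP 1 and RP 2, 1.47%, 1.61% and 1.41% in Control 1 to 3, and 4.57%, 9.56% and 19.7% in Normal 1 to 3.

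Collagens are proteins of the extracellular matrix built from chains that wind around each other in groups to form a rope-like helix. The helix needs glycine, the smallest amino acid, at every 3rd residue, because only glycine fits at its core. In skeletal muscle the fibrillar types I, III and V form the fibrils of the connective tissue sheaths around fibres and fibre bundles, and type IV forms the sheet of the basement membrane that coats each fibre and capillary. Type VI makes beaded microfilaments that join the basement membrane to the sheaths, FACIT chains (fibril-associated collagens with interrupted helices) sit on fibril surfaces, and the multiplexins, types XV and XVIII, lie at basement membranes. Fibroblasts and fibro-adipogenic progenitors, the connective tissue cells between the fibres, are the main source of the fibrillar and type VI chains.

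The glycine repeat can be read in the exons, and it differs between the classes whose levels are compared here. The lines give 1 coding exon of each of 7 chains, with glycine codons at every 3rd codon in capitals, from the mm10 genome and GENCODE release M21, 5′ to 3′ on the coding strand. The fibrillar exons are Col1a2 exon 8 of 52 (chr6:4515481-4515534, plus strand), Col3a1 exon 6 of 51 (chr1:45325360-45325413, plus) and Col5a1 exon 15 of 66 (chr2:27965251-27965304, plus). The type VI exons are Col6a1 exon 15 of 35 (chr10:76717795-76717857, minus) and Col6a2 exon 11 of 27 (chr10:76610160-76610222, minus). The type IV exons are Col4a1 exon 12 of 52 (chr8:11242173-11242214, minus) and Col4a2 exon 11 of 47 (chr8:11406813-11406854, plus), and were picked because each holds a break in the repeat.
Col1a2: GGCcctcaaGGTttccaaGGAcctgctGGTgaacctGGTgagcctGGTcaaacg
Col3a1: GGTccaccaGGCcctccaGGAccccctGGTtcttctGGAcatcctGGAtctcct
Col5a1: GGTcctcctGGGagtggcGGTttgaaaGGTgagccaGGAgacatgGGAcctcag
Col6a1: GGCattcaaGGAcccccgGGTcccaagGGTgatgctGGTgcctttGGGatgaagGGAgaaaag
Col6a2: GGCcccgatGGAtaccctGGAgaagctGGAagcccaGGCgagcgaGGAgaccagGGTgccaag
Col4a1: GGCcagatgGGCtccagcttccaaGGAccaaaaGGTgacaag
Col4a2: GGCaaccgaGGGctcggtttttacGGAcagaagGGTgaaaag
The fibrillar and type VI exons were picked from inside the longest unbroken run, so their capitals recur without a gap by choice. In both type IV exons, picked for a break, 1 spacing is longer. The exons therefore illustrate the repeat, and the classes are compared by the runs over whole chains. Over the 11 fibrillar chains, the longest unbroken run held between 216 and 344 glycine triplets. Of the 470 exons inside those runs, 284 were 54 bases long and all 470 had a length that is a multiple of 9. The 5 tested type VI chains had longest runs of 37 to 87 triplets, with 18 of 45 exons at 63 bases. The 5 tested type IV chains had longest runs of 39 to 66 triplets and 22 to 27 separate runs each, so their repeats are broken more often than those of the fibrillar and type VI chains.

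**Figure D1:**
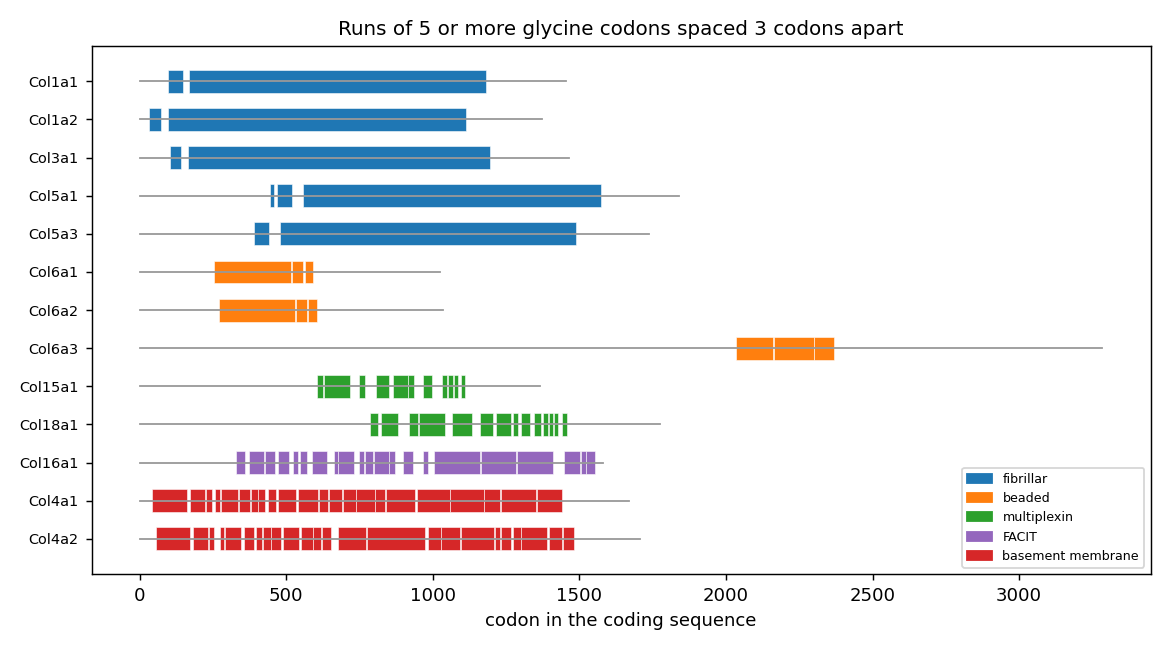
Each row is the coding sequence of 1 collagen chain in codons, and each coloured block is a run of 5 or more glycine codons spaced 3 codons apart. The 5 fibrillar chains drawn each hold 1 long block (338 triplets in Col1a1, 344 in Col3a1), the 3 type VI chains drawn hold 3 shorter blocks each (the longest 87 in Col6a1 and Col6a2), and Col4a1 holds 22 blocks.

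Fibrillar, type VI and multiplexin chains were the classes with most of the calls between Control-titled and Normal-titled muscle, all of them higher in Control-titled libraries. Of the 37 chains, 14 passed as higher (edgeR quasi-likelihood test, adjusted p below 0.05 over all 13174 genes) and 0 as lower. Over all genes, 4.99% passed as higher and 5.45% as lower. The fitted change was above 0 for 34 of 37 chains, against 50.1% of all genes, and 20 of 37 had all 3 Control-titled levels above all 3 Normal-titled levels, against 16.6% of all genes. The median log2 change was 1.11 over the chains and 0.00043 over all genes. The 14 were 7 of 11 fibrillar chains, 4 of 5 type VI chains, both multiplexins and 1 of 8 FACIT chains, against 0 of 5 type IV chains. Col2a1 and Col6a6, both among the 14, rested on few counts. A filter on a mean of at least 5 CPM leaves both out. Under it 12 of 20 chains passed as higher, against 6.47% of all genes. In bulk muscle, fewer cells of a type and less RNA per cell cannot be told apart.

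Col3a1 encodes the only chain of type III collagen, the thin reticular fibril. It had 682 and 725 CPM in RP 1 and 2, 1514, 1266 and 1435 CPM in Control 1, 2 and 3, and 228, 294 and 63.3 CPM in Normal 1, 2 and 3. The 3 groups did not overlap, with RP between the others. The Control-titled level was 7.21-fold the Normal-titled one (log2 change 2.85 ± 0.393 SE, adjusted p 0.00067), and the RP level was 3.61-fold the Normal-titled one (1.85 ± 0.406, adjusted p 0.0299).

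Col1a1 and Col1a2 encode the chains of type I collagen, the main fibril of tendon, bone and muscle sheaths. Col1a1 had 909 and 476 CPM in RP 1 and 2, 1164, 1101 and 1010.1 CPM in Control 1, 2 and 3, and 390.0, 179 and 31.4 CPM in Normal 1, 2 and 3. Col1a2 had 1228 and 715 CPM in RP 1 and 2, 1499, 1466 and 1291 CPM in Control 1, 2 and 3, and 647, 290.3 and 78.8 CPM in Normal 1, 2 and 3. For both genes the groups were apart, but the Normal-titled libraries spread widely and RP 1 was far above RP 2. The Control-titled against Normal-titled changes were 2.45 ± 0.583 (adjusted p 0.0175) for Col1a1 and 2.07 ± 0.503 (adjusted p 0.0197) for Col1a2. These 2 calls were lost without Control 1 (adjusted p 0.0534 and 0.0603), Control 3 (0.0525 and 0.056) or Normal 2 (0.0824 and 0.0912), while without Normal 1 the changes were 3.38 and 2.94.

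Type V chains join type I fibrils and limit their diameter. Col5a1 had 95.2 and 58.9 CPM in RP 1 and 2, 142, 116 and 134 CPM in Control 1, 2 and 3, and 29.6, 35.7 and 12.9 CPM in Normal 1, 2 and 3. Col5a3 had 54.7 and 37.8 CPM in RP 1 and 2, 86.5, 67.1 and 78.8 CPM in Control 1, 2 and 3, and 20.2, 20.0 and 11.9 CPM in Normal 1, 2 and 3. Their groups were apart in the same order as those of type I. Both rose in Control-titled against Normal-titled libraries, by 2.32 ± 0.297 (adjusted p 0.000398) and 2.16 ± 0.215 (adjusted p 6.87e-05) on the log2 scale. Col5a2 had 73.8 and 70.2 CPM in RP 1 and 2, 118, 96.6 and 126 CPM in Control 1, 2 and 3, and 73.6, 60.5 and 24.0 CPM in Normal 1, 2 and 3. It changed less, by 1.11 ± 0.292 (adjusted p 0.0292), with RP 2 below Normal 1, and its call was lost without Control 1 (adjusted p 0.0909), Control 3 (0.11) or Normal 2 (0.0679). Col2a1, the type II chain of cartilage, rested on few counts, 15 and 5 in RP 1 and 2, 25, 30 and 12 in Control 1 to 3, and 4, 4 and 1 in Normal 1 to 3. Its change was 2.84 ± 0.696 (adjusted p 0.0202). The call was lost without Control 1 (log2 change 2.80, adjusted p 0.0687), Control 2 (2.51, 0.0814) or Normal 2 (3.10, 0.0556) and with limma-voom (2.72, 0.0519), while the change stayed near its size. The 5 cartilage and bone markers with a row summed to 17.0 to 23.5 CPM in RP, 16.5 to 17.6 CPM in Control-titled and 10.3 to 20.8 CPM in Normal-titled libraries, nearly all of it Sox9, the only 1 that passed the filter on low counts. Matn1 was listed at 0 in every library, and Acan, Ibsp and Bglap reached at most 1.76 CPM in any, their part in the Col2a1 result not being tested. The 4 fibrillar chains that did not pass were Col11a1 (1.05, adjusted p 0.332), Col11a2 (2.38, adjusted p 0.0696), Col24a1 (-0.29, adjusted p 0.855) and Col27a1 (1.16, adjusted p 0.0535).

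**Figure D2:**
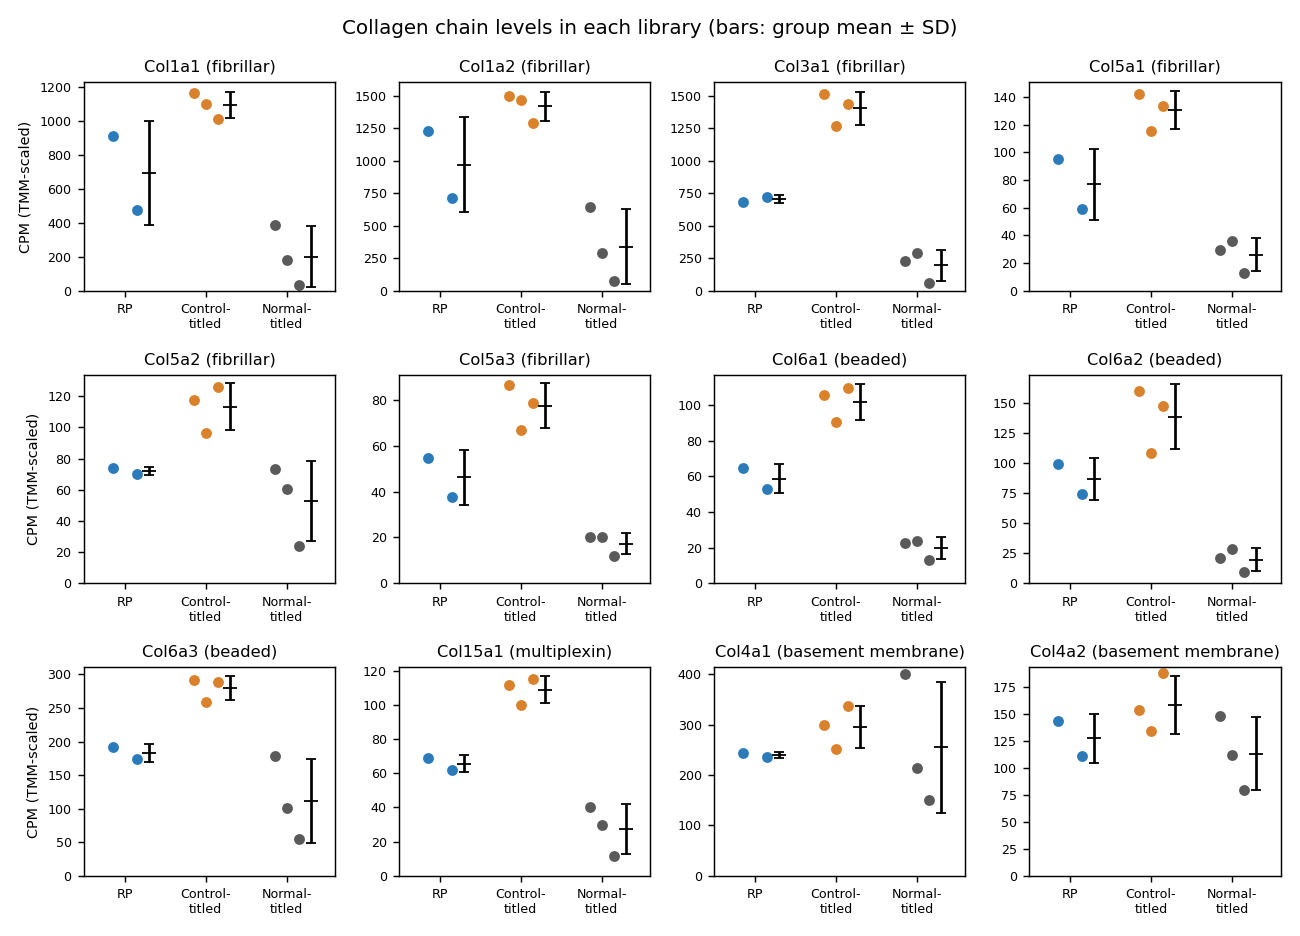
Each panel is 1 collagen chain, with its level in each library as TMM-scaled CPM on a vertical axis that starts at 0, and black bars give the group mean ± SD for RP (n = 2), Control-titled and Normal-titled (n = 3 each). Col3a1, Col5a1, Col6a1 and Col15a1 show 3 separate groups with RP in the middle, and Col4a1 and Col4a2 show groups that overlap.

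Type VI collagen is assembled from a chain of Col6a1, a chain of Col6a2 and another chain, usually of Col6a3. Col6a1 had 64.7 and 52.9 CPM in RP 1 and 2, 105, 90.5 and 109.7 CPM in Control 1, 2 and 3, and 22.7, 23.7 and 12.8 CPM in Normal 1, 2 and 3. Col6a2 had 98.9 and 74.0 CPM in RP 1 and 2, 160.2, 109 and 147 CPM in Control 1, 2 and 3, and 20.96, 28.7 and 9.32 CPM in Normal 1, 2 and 3. Neither gene's groups overlapped. Control-titled exceeded Normal-titled libraries by 2.37 ± 0.212 for Col6a1 (adjusted p 3.2e-05), the smallest adjusted p of any chain, and by 2.82 ± 0.312 for Col6a2 (adjusted p 0.000135). Col6a3 had 192 and 174 CPM in RP 1 and 2, 292, 259 and 288 CPM in Control 1, 2 and 3, and 178, 101 and 55.5 CPM in Normal 1, 2 and 3. Its change was smaller, 1.33 ± 0.297 (adjusted p 0.0125), RP 2 lay below Normal 1, and the call was lost without Control 3 (adjusted p 0.0526) or Normal 2 (0.0654). Col6a6, a chain that can take the place of Col6a3, rested on 40 and 14 counts in RP 1 and 2, 25, 34 and 49 in Control 1 to 3, and 13, 3 and 3 in Normal 1 to 3. Its change was 2.48 ± 0.613 (adjusted p 0.0213). The call was lost without Control 2 (log2 change 2.48, adjusted p 0.0552), Control 3 (2.22, 0.0967) or Normal 2 (2.16, 0.0867), and the change was 3.48 without Normal 1.

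Both multiplexins passed. Col15a1, whose chain spans basement membrane and fibrils, had 69.0 and 61.9 CPM in RP 1 and 2, 112, 100.0 and 115 CPM in Control 1, 2 and 3, and 40.4, 29.9 and 11.8 CPM in Normal 1, 2 and 3. It rose by 1.99 ± 0.305 in Control-titled against Normal-titled libraries (adjusted p 0.00132). Col18a1, the precursor of endostatin, had 14.7 and 10.5 CPM in RP 1 and 2, 21.4, 16.1 and 18.4 CPM in Control 1, 2 and 3, and 10.3, 9.29 and 5.24 CPM in Normal 1, 2 and 3. The groups were apart, though RP 2 and Normal 1 nearly met, and the change was 1.17 ± 0.249 (adjusted p 0.00982; 0.0559 without Control 1).

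Among FACIT chains only Col16a1, a minor chain found near fibrils, passed. It had 22.1 and 11.2 CPM in RP 1 and 2, 28.5, 21.9 and 26.0 CPM in Control 1, 2 and 3, and 17.0, 13.9 and 9.51 CPM in Normal 1, 2 and 3. Its change was 0.92 ± 0.257 (adjusted p 0.0377), and leaving out Control 1, 2 or 3 or Normal 2 or 3 gave adjusted p of 0.14, 0.0546, 0.116, 0.102 and 0.0818. Col12a1 and Col14a1, which coat type I fibrils, changed by 0.58 (adjusted p 0.346) and 0.76 (adjusted p 0.109) and did not pass. The FACIT median was 0.67, against 0.87 for type IV, 2.16 for fibrillar and 2.37 for type VI chains.

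No type IV chain, the class of the basement membrane sheet, passed between Control-titled and Normal-titled libraries. Col4a1, which with Col4a2 makes the type IV network around muscle fibres and capillaries, had 245 and 236 CPM in RP 1 and 2, 299, 253 and 337 CPM in Control 1, 2 and 3, and 400.3, 215 and 151 CPM in Normal 1, 2 and 3. Col4a2 had 144 and 111 CPM in RP 1 and 2, 154, 134 and 188 CPM in Control 1, 2 and 3, and 149, 112 and 80.0 CPM in Normal 1, 2 and 3. Normal 1 held the highest Col4a1 level of all 8 libraries, and the groups overlapped for both genes. Control-titled against Normal-titled changes were 0.21 ± 0.270 for Col4a1 (adjusted p 0.668) and 0.48 ± 0.213 for Col4a2 (adjusted p 0.169). Without Normal 1 both passed as higher, at 0.70 (adjusted p 0.018) and 0.72 (adjusted p 0.0256). Col4a5 passed as higher in that fit too, where 6.67% of all genes did. The absence of a type IV call therefore rests on that library. Without Normal 3 the Col4a1 change was -0.059. The pair lies head to head on chromosome 8 and its annotated exons overlap by 22 bases, and since the counting strand is not given in the sources used here, reads there cannot be assigned to 1 gene. Annotated exons of 13 of the 44 chains overlap another gene, on the opposite strand for Col5a1, Col6a6 and Col15a1 and on the same strand for Col3a1, Col7a1 and Col20a1. Col4a3, Col4a4 and Col4a5 changed by 0.90, 0.87 and 1.32 with adjusted p of 0.423, 0.229 and 0.138.

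**Figure D3:**
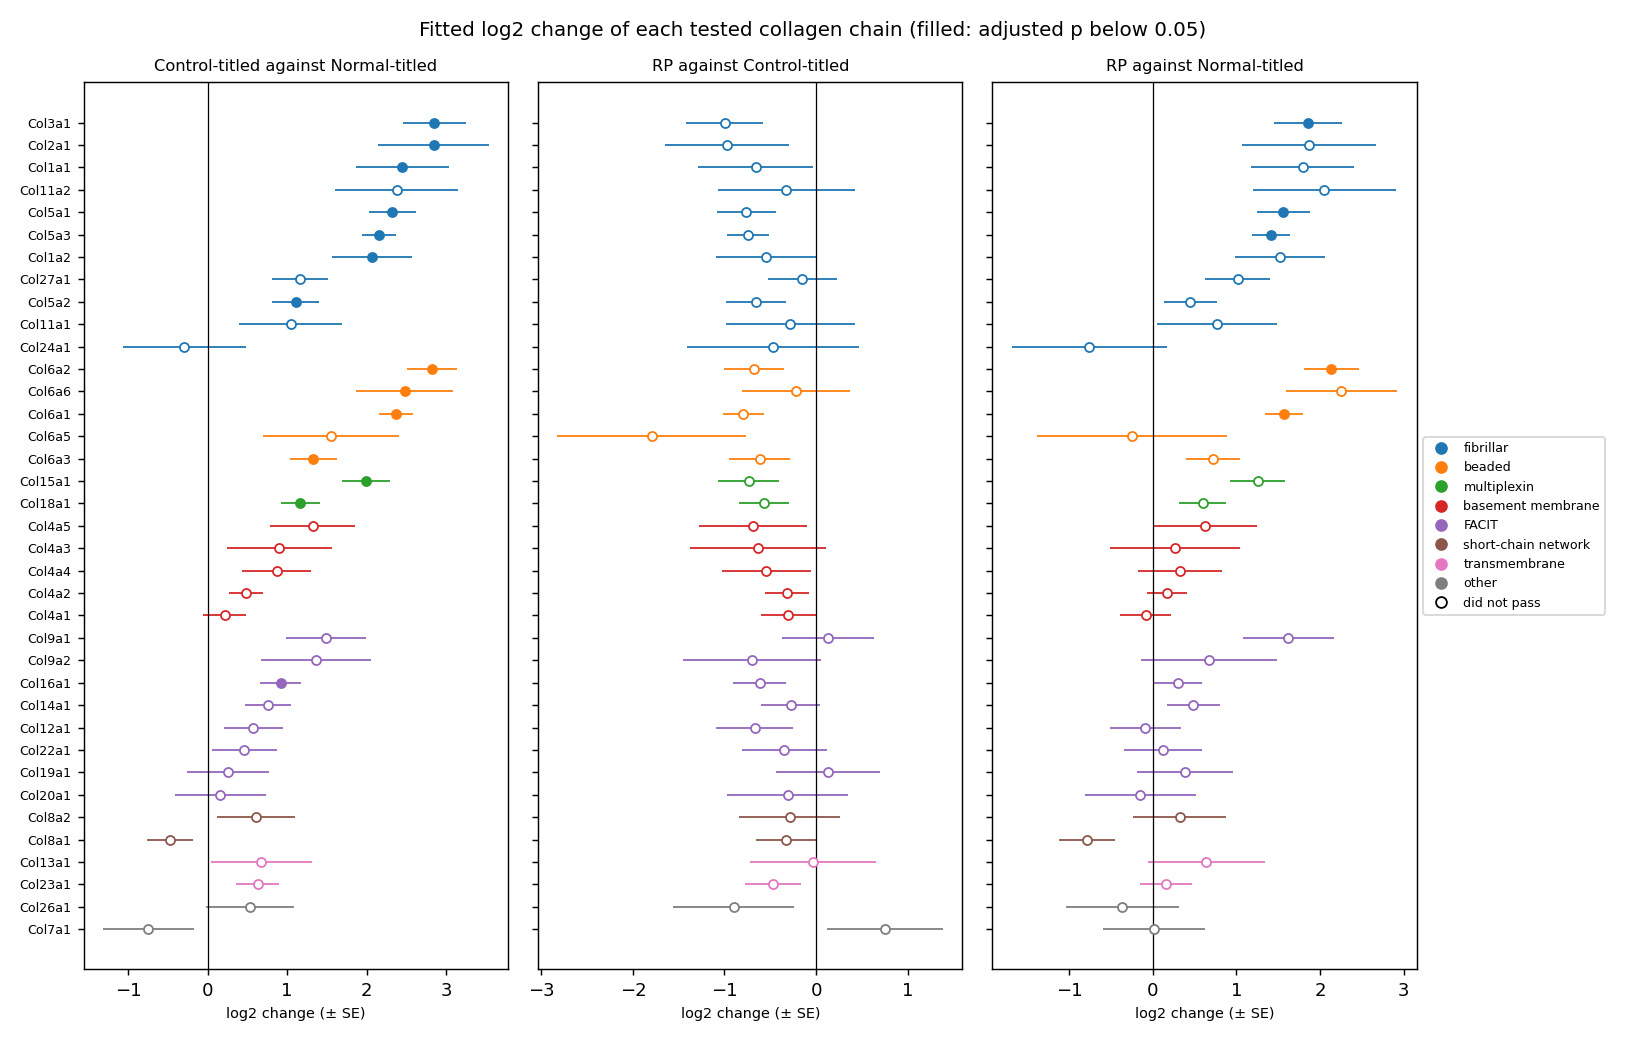
Fitted log2 change (horizontal axis, ± SE) of the 37 tested collagen chains in each comparison, coloured by class, with filled points for adjusted p below 0.05. In Control-titled against Normal-titled libraries 14 points are filled and 34 lie right of 0, in RP against Control-titled none is filled and 34 lie left of 0, and in RP against Normal-titled 5 are filled.

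Counts of pairs of chains, most of them partners in 1 protein, were also set against each other within each library. Across 7 ratios of counts, chosen after their values were seen, the Col1a1 to Col1a2 ratio was 0.740 and 0.666 in RP 1 and 2, 0.776, 0.751 and 0.782 in Control 1 to 3, and 0.603, 0.615 and 0.399 in Normal 1 to 3. The Col5a1 to Col5a2 ratio was 1.29 and 0.839 in RP 1 and 2, 1.21, 1.20 and 1.06 in Control 1 to 3, and 0.402, 0.590 and 0.538 in Normal 1 to 3. The Col6a3 to Col6a1 ratio was 2.97 and 3.29 in RP 1 and 2, 2.77, 2.87 and 2.63 in Control 1 to 3, and 7.85, 4.23 and 4.33 in Normal 1 to 3. In each of these the Control-titled and Normal-titled ratios did not overlap. The Col3a1 to Col4a1 ratio, which sets a sheath chain against a basement membrane chain in the same library, was 2.79 and 3.07 in RP 1 and 2, 5.06, 5.01 and 4.26 in Control 1 to 3, and 0.569, 1.37 and 0.419 in Normal 1 to 3. The 3 groups were apart. The exact 2-sided permutation test gave 0.1 for each of these 4 ratios between Control-titled and Normal-titled libraries, the smallest p that 3 against 3 allows, and 0.175 after adjustment over the 7. The Col4a1 to Col4a2, Col6a1 to Col6a2 and Col3a1 to Col1a1 ratios overlapped, with exact permutation p of 0.4, 0.2 and 1.

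Fitted collagen levels were lower in RP than in Control-titled libraries for most chains, but no chain passed the test. With edgeR, 0 of 37 chains passed in either direction, against 0.144% of all genes higher and 0.0304% lower. At an unadjusted p below 0.05, 0 were higher and 5 lower (Col3a1, Col5a1, Col5a3, Col6a1 and Col15a1), against 3.95% and 5.03% of all genes, and DESeq2 and limma-voom also called 0. The fitted change was below 0 for 34 of 37 chains, against 50.5% of all genes, with a median of -0.55, and 16 of 37 had both RP levels below all 3 Control-titled levels, against 16.4% of all genes. The 1 chain with both RP levels above them was Col7a1, the anchoring fibril chain, at 0.862 and 1.23 CPM in RP 1 and 2 and 0.529, 0.6 and 0.723 CPM in Control 1, 2 and 3. The changes were -0.997 ± 0.422 for Col3a1 (adjusted p 0.522), -0.79 ± 0.227 for Col6a1 (0.273), -0.74 ± 0.232 for Col5a3 (0.326), -0.66 ± 0.629 for Col1a1 (0.82) and -0.30 ± 0.304 for Col4a1 (0.829). Class medians were -0.66 for fibrillar, -0.68 for type VI, -0.65 for multiplexin, -0.54 for type IV and -0.33 for FACIT chains. Fitting only RP and Control-titled libraries called 4 chains lower (Col3a1 at adjusted p 0.00223, Col6a1 at 0.0302, Col6a3 at 0.0367 and Col15a1), where 0.38% of all genes in that fit passed as lower. Leaving out Normal 3, which is in neither group, called 2 lower (Col3a1 at 0.0151 and Col6a1 at 0.0426), where 0.16% of all genes passed as lower. Among cell type markers, the neutrophil genes S100a8 (4.53 ± 0.769, adjusted p 0.0403) and S100a9 (4.36 ± 0.768, 0.0434) were higher in RP than in Control-titled libraries. They were the 2 of 6 neutrophil markers that passed. The 6 summed to 34.4 CPM in RP 1 and 486 CPM in RP 2, against 10.6 to 20.2 CPM in Control-titled libraries, so most of the RP level lay in RP 2. The part of these cells in the collagen levels was not tested.

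Against Normal-titled libraries, RP libraries were higher in 5 of 37 chains and lower in 0, where 1.67% of all genes passed as higher and 0.835% as lower. The fitted change was above 0 for 30 of 37 chains, against 46.2% of all genes, and 14 of 37 had both RP levels above all 3 Normal-titled levels, against 15.4% of all genes. The 5 were Col6a2 (2.13 ± 0.328, adjusted p 0.00418), Col3a1 (1.85 ± 0.406, 0.0299), Col6a1 (1.57 ± 0.226, 0.00289), Col5a1 (1.56 ± 0.316, 0.0206) and Col5a3 (1.41 ± 0.232, 0.00641). The type I chains missed the threshold, with 1.79 ± 0.613 for Col1a1 (adjusted p 0.147) and 1.52 ± 0.535 for Col1a2 (0.16), and so did Col15a1 at 1.25 ± 0.328 (0.0643). Type IV changes were small, -0.09 ± 0.303 for Col4a1 (0.924) and 0.17 ± 0.237 for Col4a2 (0.783). Without RP 1 none of the 5 passed, with adjusted p of 0.0652, 0.177, 0.0507, 0.281 and 0.126 in the order named, in a fit where 0.358% of all genes passed as higher. Without Normal 1, 14 chains passed as higher, where 2.91% of all genes did. The Col3a1 call was also lost without RP 2 (adjusted p 0.103), Control 1 (0.0523) or Control 3 (0.0596), the Control-titled libraries entering through the shared estimate of spread. Fitting only RP and Normal-titled libraries lost Col3a1 (0.0899) and Col5a1 (0.0653). These comparisons share libraries, so their values are not independent of one another.

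**Figure D4:**
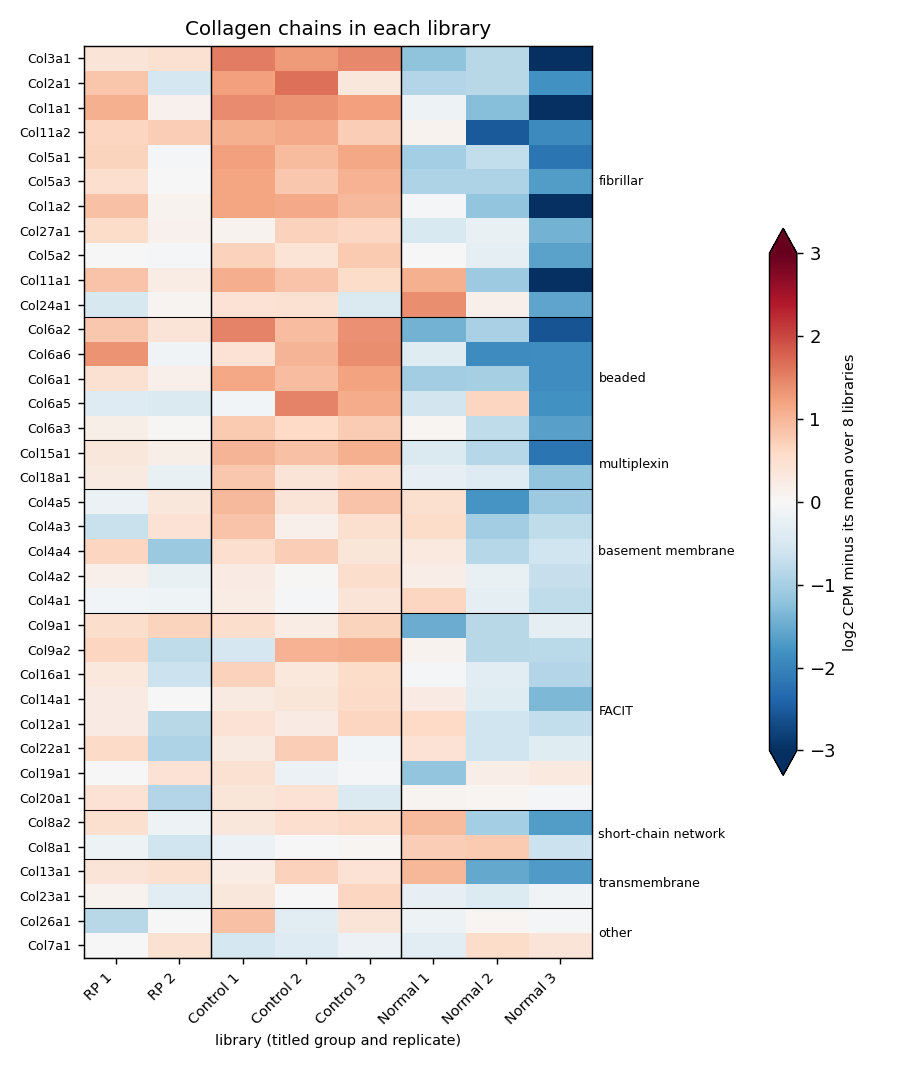
Each row is a tested collagen chain, each column a library, and colour is log2 CPM minus that chain's mean over the 8 libraries, clipped at -3 and 3. Control-titled columns are mostly red in the fibrillar and type VI rows, Normal 3 is blue in nearly every row and holds the lowest level of 23 chains, and RP columns are paler than Control-titled columns.

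Collagen levels spread most widely among the Normal-titled libraries. Summed over the 44 rows they were 4027 and 2912 CPM in RP 1 and 2, 5835, 5243 and 5455 CPM in Control 1, 2 and 3, and 2382, 1513 and 613 CPM in Normal 1, 2 and 3. The fibrillar sum was 3066 and 2100 CPM in RP 1 and 2, 4550, 4139 and 4095 CPM in Control 1, 2 and 3, and 1411, 887 and 225 CPM in Normal 1, 2 and 3. The type IV sum was 397 and 353 CPM in RP 1 and 2, 464, 397 and 535 CPM in Control 1, 2 and 3, and 558, 330 and 235 CPM in Normal 1, 2 and 3. The fibrillar groups did not overlap and the type IV groups did. Normal 3 had the lowest level in 23 of 37 chains and the highest haemoglobin share, and Control 1 had the highest level in 14 chains. The haemoglobin share was above that of every RP and Control-titled library in all 3 Normal-titled ones. With log2 Hba-a1 as a covariate, 3 chains passed between Control-titled and Normal-titled libraries (Col5a3, Col6a1 and Col6a2) and 0 between RP and Normal-titled ones. In that fit 0.865% and 0.304% of all genes passed as higher. Haemoglobin is tied to the group here, so this fit cannot fully separate it from the group difference. Removing the haemoglobin genes from the counts left 14 and 5 chains, where 4.86% and 1.67% of all genes passed as higher. Erythroid markers summed to 8872 to 39790 CPM in RP, 12767 to 16165 CPM in Control-titled and 43361 to 236615 CPM in Normal-titled libraries. All 8 passed as lower in Control-titled than in Normal-titled ones, against 5.45% of all genes.

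The summed markers of fibroblasts and tenocytes, cells that make sheath collagen, overlapped between the groups. Fibroblast and fibro-adipogenic progenitor markers (10, all tested) summed to 9777 to 10210 CPM in RP, 8818 to 10002 CPM in Control-titled and 6976 to 11548 CPM in Normal-titled libraries, and the sum is led by Dcn. Between Control-titled and Normal-titled libraries 5 of these 10 passed as higher and 0 as lower, where 4.99% of all genes passed as higher and 5.45% as lower. Among the 5 were Lum (1.12 ± 0.160, adjusted p 0.000842) and Dpt (1.31 ± 0.198, 0.00125). Tenocyte markers (7) summed to 582 to 743 CPM in RP, 678 to 700 CPM in Control-titled and 324 to 899 CPM in Normal-titled libraries. Of the tenocyte markers, Tnmd (2.85 ± 0.304, adjusted p 0.000101) and Kera (3.23 ± 0.297, 3.9e-05) were higher in Control-titled ones, and 0 were lower. Neutrophil markers (6) summed to 34.4 to 486 CPM in RP, 10.6 to 20.2 CPM in Control-titled and 926 to 1920 CPM in Normal-titled libraries. All 6 were lower in Control-titled than in Normal-titled libraries. Macrophage markers (6) summed to 260 to 398 CPM in RP, 322 to 472 CPM in Control-titled and 194 to 423 CPM in Normal-titled libraries, and 0 passed between Control-titled and Normal-titled ones. Endothelial markers (6) summed to 359 to 389 CPM in RP, 345 to 428 CPM in Control-titled and 377 to 440 CPM in Normal-titled libraries, with 1 (Vwf) lower in Control-titled than in Normal-titled ones. Between RP and Normal-titled libraries, 1.67% of all genes passed as higher and 0.835% as lower. There 2 fibroblast markers (Dpt, 0.99 ± 0.215, and Lum, 0.78 ± 0.176) and 2 tenocyte markers (Kera, 2.67 ± 0.315, and Tnmd, 2.54 ± 0.322) were higher. The median log2 change over the 7 tenocyte markers was -0.062. Lower were 1 neutrophil and 1 erythroid marker (Retnlg and Slc4a1). The part of these cells in the collagen levels of these comparisons was not tested.

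**Figure D5:**
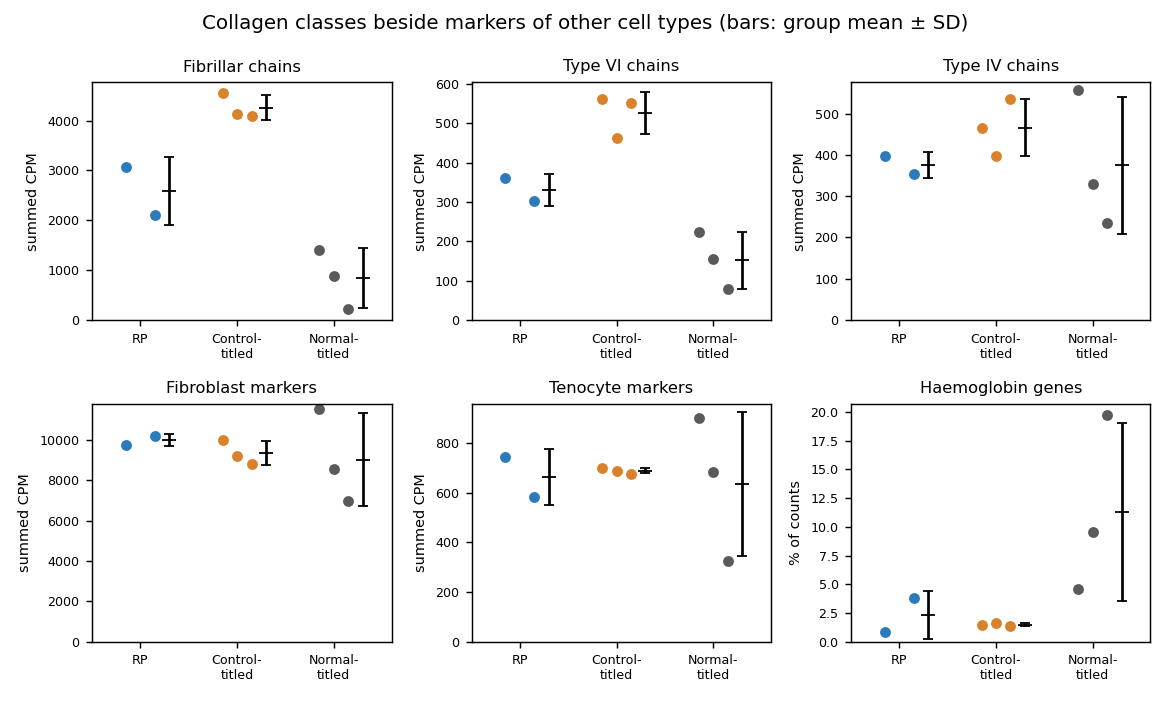
Summed CPM of 3 collagen classes (top row), and of fibroblast and tenocyte markers with the haemoglobin share of counts (bottom row), 1 point a library, with group mean ± SD; all axes start at 0. Fibrillar sums are 4095 to 4550 CPM in Control-titled and 225 to 1411 CPM in Normal-titled libraries, while fibroblast marker sums overlap between all groups.

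Some genes that process collagen passed as well, to be read against 4.99% of all genes higher and 5.45% lower between Control-titled and Normal-titled libraries. Among 18 tested genes that fold and modify chains, 3 passed as higher between Control-titled and Normal-titled libraries and 0 as lower. They were Fkbp14, a prolyl isomerase of the endoplasmic reticulum (1.27 ± 0.178, adjusted p 0.000717), Crtap, a partner of prolyl 3-hydroxylase (0.94 ± 0.182, 0.00568), and Colgalt2, a collagen galactosyltransferase (0.93 ± 0.230, 0.0213), whose call was lost without Control 1 (0.0894), Control 2 (0.0596) or Control 3 (0.0607). Among 12 genes of procollagen cleavage and cross-linking, 5 were higher and 1 lower. Sparc, a collagen-binding matricellular protein, had 1586 and 1279.6 CPM in RP 1 and 2, 2407, 2399 and 2461 CPM in Control 1, 2 and 3, and 899.9, 950.3 and 571 CPM in Normal 1, 2 and 3, with groups apart and a change of 1.59 ± 0.192 (adjusted p 0.000246). Pcolce, which enhances removal of the carboxyl propeptide, changed by 1.42 ± 0.202 (0.000785), and Adamts2, which removes the amino propeptide, by 1.56 ± 0.308 (0.00628). The others were Loxl2, a lysyl oxidase relative, and Bmp1, the carboxyl propeptide protease. Lox, the lysyl oxidase that starts cross-linking, went the other way, with 46.6 and 43.7 CPM in RP 1 and 2, 42.6, 45.4 and 41.0 CPM in Control 1, 2 and 3, and 234, 113 and 57.3 CPM in Normal 1, 2 and 3. Its change was -1.65 ± 0.353 (adjusted p 0.00987; 0.0561 without Control 3), and -0.99 without Normal 1. With log2 Hba-a1 as a covariate the calls of Adamts2 (0.40, adjusted p 0.546), Pcolce (0.98, 0.108), Crtap (0.82, 0.186), Fkbp14 (1.30, 0.0568) and Colgalt2 (0.47, 0.559) were lost.

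Of 14 genes of collagen breakdown, 4 were higher in Control-titled libraries (Ctsk, Mrc2, Mmp2 and Fap) and 1 lower. Ctsk, cathepsin K, changed by 1.60 ± 0.220 (adjusted p 0.00067), and Mmp2, a gelatinase, by 0.85 ± 0.212 (0.0223). The Mmp2 call was lost without Control 1 (0.103), Control 3 (0.0702) or Normal 2 (0.0585), and that of Mrc2, a collagen uptake receptor, without Control 1 (0.0539), Control 3 (0.101) or Normal 2 (0.0519). Mmp8, the neutrophil collagenase, had 0.108 and 5.76 CPM in RP 1 and 2, 0, 0.2 and 0.271 CPM in Control 1, 2 and 3, and 10.6, 22.4 and 17.1 CPM in Normal 1, 2 and 3, and passed as lower (adjusted p 0.00067). With log2 Hba-a1 as a covariate Ctsk (0.93, adjusted p 0.136), Mmp2 (0.16, 0.8), Mrc2 (0.45, 0.611) and Mmp8 (0.0584) did not pass, nor did Ctgf (-2.44, 0.0663), Smad7 (-0.89, 0.252), Ltbp4 (0.972) and Nid2 (0.21, 0.789). Of 7 collagen receptors 0 passed. Of 14 genes of TGF-beta signalling, a pathway known to drive collagen transcription, 1 was higher (Ltbp4, 0.86 ± 0.228, 0.0305) and 4 lower, among them Ctgf and Smad7. Ctgf had 109.6 and 235 CPM in RP 1 and 2, 134, 182 and 157 CPM in Control 1, 2 and 3, and 995, 385 and 214 CPM in Normal 1, 2 and 3, a change of -1.75 ± 0.434 (0.0213), with Normal 1 far above the rest. Without Normal 1 the Ctgf change was -0.93, and its call was lost without Control 1 (0.0944), Control 2 (0.0568) or Control 3 (0.089). Leaving out single libraries also lost Ltbp4 (Control 1, 2 or 3 or Normal 2, adjusted p 0.0673 to 0.107) and Smad7 (Control 1 or 2 or Normal 1, 2 or 3, 0.0537 to 0.17). Of 10 other basement membrane genes only Nid2, a nidogen that links laminin to type IV collagen, passed (1.18 ± 0.274, 0.0153; 0.0607 without Control 1, 0.0689 without Control 3 and 0.0645 without Normal 2). Between RP and Control-titled libraries 0 genes of these 6 lists passed in either direction. Between RP and Normal-titled libraries, where 1.67% of all genes passed as higher, P3h1 (0.86, adjusted p 0.0335), Pcolce (1.01, 0.0282) and Smad3 (0.89, 0.0299) were higher, and each call was lost without RP 1 (0.21, 0.161 and 0.199), RP 2 (0.12, 0.135 and 0.114), Control 1 (0.0626, 0.0572 and 0.0614), Control 3 (0.0654, 0.0591 and 0.0581) or Normal 2 (0.0892, 0.127 and 0.0771). Smad3 was also lost without Control 2 (0.0543), and all 3 were lost with only these 2 groups fitted (0.111, 0.0981 and 0.116).

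Other chains did not pass. Col8a1 and Col8a2, the short network chains of vessel walls, changed by -0.47 (adjusted p 0.333) and 0.61 (0.471) between Control-titled and Normal-titled libraries, and by -0.79 and 0.32 (0.245 and 0.83) between RP and Normal-titled ones. When Normal 3 was left out, Col8a1 passed as lower in both comparisons, the only 1 of 37 chains that did. Over all genes, 6.33% and 1.48% passed as lower in these fits. Col9a1, a FACIT chain of cartilage, had 2.05 and 2.26 CPM in RP 1 and 2, 2.03, 1.60 and 2.26 CPM in Control 1, 2 and 3, and 0.36, 0.67 and 1.07 CPM in Normal 1, 2 and 3. Its RP and Control-titled levels lay above all Normal-titled ones, with changes of 1.62 (adjusted p 0.142) in RP and 1.49 (0.077) in Control-titled libraries against Normal-titled ones. The transmembrane chains Col13a1 and Col23a1 changed by 0.68 (0.543) and 0.63 (0.157). The 7 rows below the filter were Col4a6, Col6a4, Col9a3, Col10a1, Col17a1, Col25a1 and Col28a1, with 34, 0, 6, 1, 25, 13 and 38 counts over all 8 libraries. A floor of 3 counts corresponds to 0.265 to 0.323 CPM per library, so levels under it rest on fewer than 3 counts.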

How the data were processed

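The authors deposited 1 table of raw counts per gene for each of the 8 libraries. Bowtie2, edgeR and the mm10 build are named, without roles, per the submitters' processing notes. Libraries were made from 500 ng of RNA with Lexogen's Quant-Seq kit, per the labels' protocols. The counting tool and strand setting are not given in the sources used here, and levels are compared within a gene only. Counts were scaled by TMM, filtered with filterByExpr and fitted with all 3 groups in 1 edgeR model (edgeR 4.0.16, R 4.3.3). Quasi-likelihood F tests were 2-sided, with Benjamini-Hochberg adjustment over 13174 genes and a threshold of 0.05. Levels are TMM-scaled CPM. A prior count of 2 was used only for log2 levels, such as those set against a chain's mean over the 8 libraries. Fitted log2 changes use edgeR's default prior count. The script was tested on simulated data. Total counts bound the counting error: the Wilson 95% interval of a collagen share lay within 0.00481 percentage points of the share, which covers counting error only.

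Values in every library are given for chains that passed in a comparison and for chains of types I, III, IV (a1, a2) and VI (a1 to a3), and of each related list up to 4 passing members with the largest change and a mean of at least 5 CPM. Other genes named (among them Col7a1, Col8a1, Col9a1, Col11a2, Col27a1, S100a8, S100a9, Tnmd, Kera, Lum, Dpt and Fap) were chosen after their values were seen. Some items that the naming rule or the marker lists cover are not reported here. The chains and lists were chosen with earlier results of these data known. Positions and exons are from GENCODE M21. Alternatives used RLE and upper-quartile scaling, other filters, DESeq2 1.42.0, limma-voom 3.58.1, 2-group fits, a replicate block, a looser threshold, haemoglobin removal or an Hba-a1 covariate, and leaving out each library. The main model has no block. Libraries with the same number did not deviate together, but deviations were taken from means of 2 or 3 libraries, which ties them to each other, so this check is weak.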

Additional observations from a re-analysis of the deposited data

How the results depend on the processing

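Under 19 alternatives the collagen result that held best was the Control-titled against Normal-titled rise of Col5a3, Col6a1 and Col6a2, which passed in every one. Leaving out each of the 8 libraries in turn, the calls of 6 chains remained (these and Col3a1, Col5a1 and Col15a1), and the numbers higher ranged between 7 and 23 and lower between 0 and 1, against 14 and 0. Calls over all genes moved too, between 2.29% and 6.67% higher. The median over chains then lay between 0.75 and 1.42. That of RP against Control-titled libraries lay between -0.77 and -0.26, and that of RP against Normal-titled between 0.25 and 1.19. In the fits that kept both RP libraries, 0 to 2 chains were lower in RP than in Control-titled libraries, against 0 to 0.16% of all genes. Against Normal-titled libraries, 4 to 14 chains were higher and 0 to 1 lower. The shares of all genes there were 0.773% to 2.94% higher and 0.276% to 2.21% lower. With log2 Hba-a1 as a covariate, haemoglobin being tied to the group, 3 chains were higher in Control-titled libraries and 0 in RP against Normal-titled. The medians were 0.33 and -0.086. Over all genes this fit called 114 higher and 191 lower between Control-titled and Normal-titled libraries, against 658 and 718. Between RP and Normal-titled libraries it called 40 higher and 18 lower, against 220 and 110. Chains with a change above 0 then numbered 23 of 37 and 14 of 37, against 34 and 30. Among the genes described, signs turned for Col16a1 (-0.15), Col4a1 (-0.64), Col4a2 (-0.27) and Ltbp4 (-0.024) between Control-titled and Normal-titled libraries and for Col1a1 (-0.027), Col1a2 (-0.077), Col6a3 (-0.12) and Col4a2 (-0.51) between RP and Normal-titled. With limma-voom the sign of Col4a1 between RP and Normal-titled libraries turned (0.033). Leaving out single libraries, the Col4a1 change lay between -0.059 and 0.70 in Control-titled against Normal-titled and between -0.34 and 0.39 in RP against Normal-titled, and the Col4a2 change in the second lay between -0.029 and 0.41 (-0.014 without Normal 3). Without a filter on low counts, 2 chains were lower in RP than in Control-titled libraries and 9 higher in RP than in Normal-titled. The shares of all genes that passed so in this fit were 0.532% and 2.23%. With only the 2 groups compared, these numbers were 4 and 3 chains, against 0.38% and 0.585% of all genes. The cause of these shifts was not tested, and leave-one-out fits also have fewer samples. Correlations of deviations from group means were -0.068 to 0.080 between libraries of the same number and -0.080 to 0.068 between others. RP 1 and RP 2 deviate from their mean by equal and opposite amounts, so these ranges mirror each other. They therefore do not decide whether libraries pair by replicate number. The fit with the replicate block called 14, 0 and 5 chains higher, the same as without it, but lost P3h1 (adjusted p 0.0727). Over all genes it called 4.58%, 0.121% and 1.28% higher.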
